A study of Mus musculus with 4 samples.

Results

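Genes of mouse ligands that restrain T cells, natural killer cells or phagocytes were compared between ID8G and GO2 cells. A gene was included when its symbol is 1 of Cd24a, Cd47, Cd274, Pdcd1lg2, Cd80, Cd86, Cd276, Vtcn1, Pvr and Nectin2 and the RefSeq accession of at least 1 array probe maps to it. All 10 genes had a probe, 17 probes in total among 56605, and the array named 22911 genes in this way. ID8 is a mouse ovarian cancer line that arose from ovarian surface epithelial cells of C57BL/6 mice, and ID8G is the parental line after retroviral transfer of GFP. GO2 cells are CD45-negative GFP+ cells sorted from omental tumors of C57BL/6 J mice after 2 successive intraperitoneal passages of the ID8G lineage. Both lines carried GFP and were grown in the same DMEM with 4% FBS, insulin, transferrin and selenite, with no drug treatment named. Total RNA of each line was hybridized to 2 Agilent arrays. No source states that the 2 arrays of a line came from separate cultures, so the p-values measure the spread between these samples, which may be technical. GO2 is 1 selected line, so a difference separates these 2 lines and cannot be told apart from a difference between any 2 sublines. The comparison asked how expression of these ligands differed after selection for growth in the omentum.

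The ligands sit on the surface of a tumor cell and are read by receptors on immune cells. PD-L1 and PD-L2, encoded by Cd274 and Pdcd1lg2, engage PD-1 on T cells. CD80 and CD86 engage CD28, which costimulates, and CTLA-4, which restrains. B7-H3 and B7-H4, encoded by Cd276 and Vtcn1, are further members of the B7 family that dampen T cell responses. PVR and nectin-2 are adhesion molecules that bind the inhibitory receptor TIGIT and the activating receptor CD226. CD47 binds SIRPα on macrophages, and CD24 binds Siglec-G in mice and Siglec-10 in humans, and both are known as do-not-eat-me signals because they limit engulfment.

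Levels are given in log2 units as the intensity relative to the 75th percentile of the same array, so that 0 is the intensity below which 75% of the probes on that array lie. Each member probe was printed once per array, and a level was compared only with that of the same probe on another array. A probe was tested when both arrays of ID8G, of GO2 or of both lines rated it well above background. It was called when limma gave a Benjamini-Hochberg adjusted p under 0.05 together with a difference of at least 2-fold. Of the 10 genes, 6 were tested with 9 probes. Of the 6, the 2 genes Cd24a and Cd276 were called higher in GO2 cells, where 6.44% of the 13215 named genes tested were called higher. None of the 6 was called lower, where 4.33% of all genes were. By the adjusted p alone, 2 were higher, against 22.8% of all genes, and 3 were lower, against 22.5%. The 3 that were lower at an adjusted p below 0.05 were Cd47, Pvr and Nectin2, each by less than 2-fold, and the same number was lower at an unadjusted p below 0.05. The median difference was -0.21 on the log2 scale over the 6 genes, 1 probe per gene, and -0.00066 over all genes tested. The tested genes had to be well above background in 1 line or the other, so these counts do not describe the 4 genes that were not tested.

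**Figure D1:**
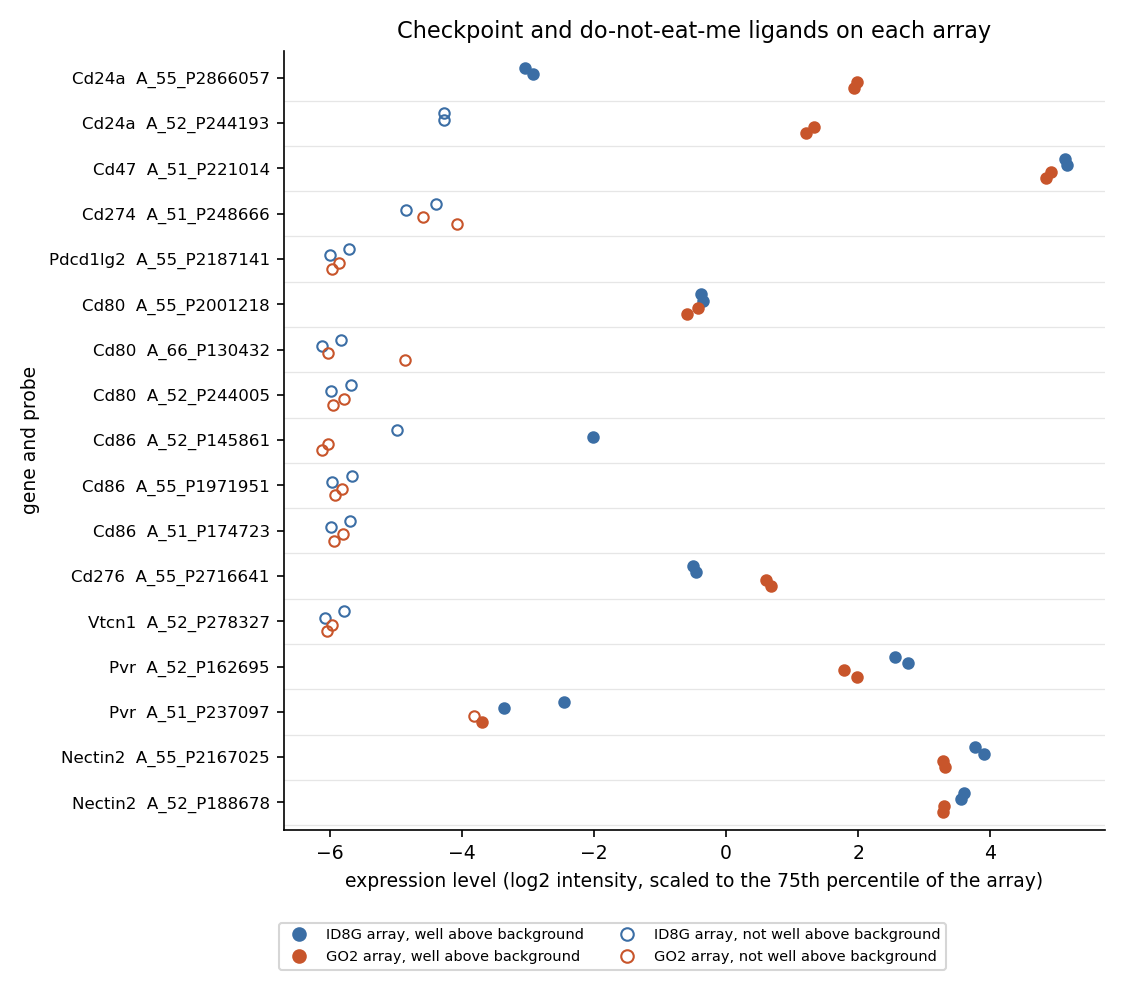
Expression level of each of the 17 probes on each of the 4 arrays (x axis, log2 intensity scaled to the 75th percentile of each array), with genes and probes on the y axis. Blue circles are the 2 ID8G arrays, orange circles the 2 GO2 arrays, and open circles are values not well above background. The GO2 arrays lie far to the right of the ID8G arrays for both Cd24a probes, and the probes for Cd274, Pdcd1lg2 and Vtcn1 have open circles only.

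Of the ligands read by phagocytes, Cd24a had the largest difference among the 10 genes. The probe A_55_P2866057 had levels of -3.04 and -2.92 in the ID8G samples and of 1.99 and 1.94 in the GO2 samples. Both GO2 values lay above both ID8G values, and the replicates of a line differed by far less than the lines did. The difference was 4.94 on the log2 scale (SE 0.07, 95% confidence interval 4.76 to 5.13, limma adjusted p = 0.000182), a 30.8-fold higher level in GO2 cells. In RNA from a bulk culture, more cells that express a gene and more RNA per cell cannot be told apart. In linear intensity, the same probe gave 82.0 and 88.5 in ID8G cells and 2514 and 2412 in GO2 cells. The other probe, A_52_P244193, had levels of -4.27 and -4.26 in ID8G cells, neither well above background, and of 1.33 and 1.21 in GO2 cells. Since ID8G cells gave no measured level for it, its difference is a bound, at least 30.9-fold higher in GO2 cells. It passed the background rule through GO2 alone, so its limma adjusted p of 0.000182 adds no support. The bound takes the higher of the dim probe's own signal and the lowest signal among probes well above background on that array. The probe A_55_P2866057 had adjusted p-values below 0.05 in all 18 settings with limma's test against a difference of 0. Its difference ranged from 3.93 to 5.01. For A_52_P244193 the difference ranged from 3.91 to 5.60 over 17 settings, with no measured level in ID8G cells. The low end came with normexp background correction and lies below the bound, which is 4.95 on the log2 scale and applies to the main scaling. With the methods' t-test, two-tailed with Welch correction, the values after Benjamini-Hochberg adjustment were 0.122 and 0.137. The sequences of the probes were not used here, so hybridization to related transcripts was not examined.

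Cd47 differed in the other direction. Its level was 5.14 and 5.17 in ID8G cells and 4.92 and 4.84 in GO2 cells. The groups did not overlap, but the gap was small. The difference was -0.27 on the log2 scale (SE 0.06, 95% confidence interval -0.43 to -0.12, limma adjusted p = 0.0289), a 1.21-fold lower level in GO2 cells. Among the 18 settings with limma's test against a difference of 0, the adjusted p was at or above 0.05 in 6, which were testing without the filter on dim probes, taking the replicate number as a replicate block, and leaving out any 1 of the 4 arrays, and it reached 0.172. It was 0.203 with the methods' t-test.

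Neither ligand of PD-1 was measured above background. The Cd274 probe had levels of -4.39 and -4.84 in ID8G cells and of -4.58 and -4.07 in GO2 cells, and the groups overlapped. The Pdcd1lg2 probe had levels of -5.71 and -6.00 in ID8G cells and of -5.85 and -5.96 in GO2 cells, which overlapped as well. Since none of the 4 arrays rated either probe well above background, no fold is given, and a difference was not detectable at this signal. The 2 genes are direct neighbors on chromosome 19. Among the 5 protein-coding genes on either side of Cd274, 7 were tested, none was called, and their differences ranged from -0.67 to 0.30.

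Of the ligands of CD28 and CTLA-4, Cd80 was detected by 1 probe in both lines and Cd86 by 1 probe on 1 array. Cd80 has 3 probes, and A_55_P2001218 was well above background on all 4 arrays, with levels of -0.38 and -0.35 in ID8G cells and of -0.43 and -0.59 in GO2 cells. The difference was -0.15 (SE 0.08, limma adjusted p = 0.202), and its 95% confidence interval of -0.35 to 0.06 does not reach a 2-fold change in either direction. The other Cd80 probes, A_52_P244005 and A_66_P130432, were not well above background on any array, so the probes of this gene disagree on whether it was detected. Cd86 also has 3 probes, of which 2 lay between -5.99 and -5.67 on all 4 arrays and were not well above background. The remaining Cd86 probe, A_52_P145861, had levels of -4.98 and -2.01 in ID8G cells and of -6.03 and -6.12 in GO2 cells. In linear intensity, the same probe read 21.4 and 166 in ID8G cells and 9.7 and 9.0 in GO2 cells. Its high value came from ID8G replicate 2, the only array on which it was well above background, so this probe was not tested and the replicates of ID8G did not agree. Without ID8G replicate 1 the probe entered the test and was called lower in GO2 cells, a call that then rests on ID8G replicate 2 alone and on GO2 values that were not well above background.

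Of the other B7 family ligands, Cd276 was called higher in GO2 cells. Its level was -0.50 and -0.45 in ID8G cells and 0.60 and 0.68 in GO2 cells, with no overlap. The difference was 1.11 on the log2 scale (SE 0.06, 95% confidence interval 0.95 to 1.27, limma adjusted p = 0.000914), a 2.16-fold higher level. The adjusted p stayed below 0.05 in all 18 settings with limma's test against a difference of 0, but the difference fell short of 2-fold with normexp background correction (0.98) and with arrays scaled to the spike-in transcripts (0.90), so the call rests on the scale used. It was also lost with the methods' t-test (adjusted p 0.118) and with limma treat, which tests for a difference larger than 2-fold (adjusted p 0.971). Vtcn1 was not well above background on any array, with levels of -5.78 and -6.06 in ID8G cells and of -5.97 and -6.05 in GO2 cells.

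**Figure D2:**
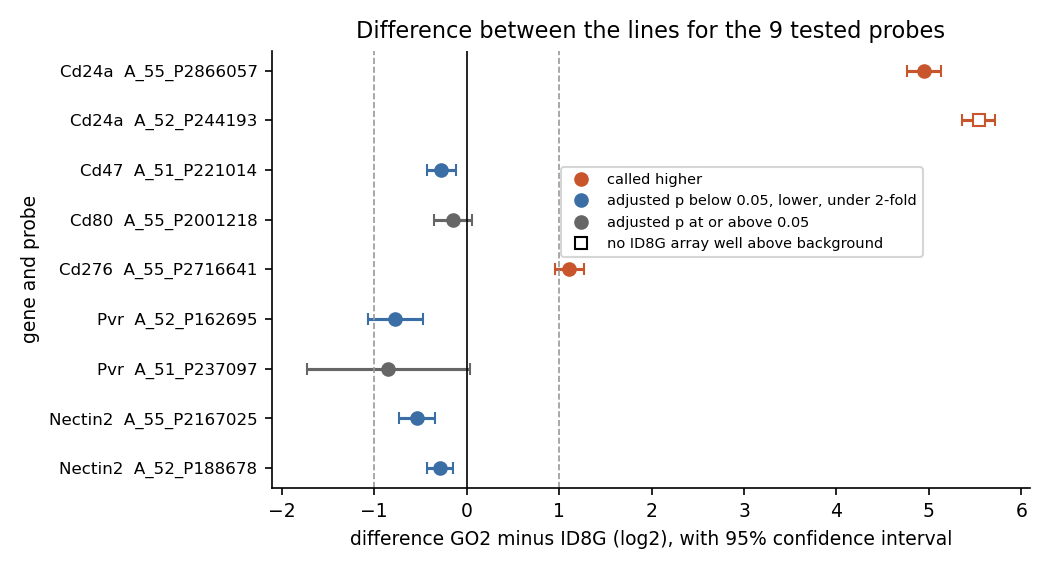
Difference between the lines for the 9 tested probes (x axis, GO2 minus ID8G on the log2 scale, 2 arrays per line), with 95% confidence intervals as bars and dashed lines at a 2-fold change. Both Cd24a probes lie near 5, Cd276 lies just past the upper dashed line at 1.11, and the probes for Cd47, Pvr and Nectin2 lie between 0 and the lower dashed line.

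Pvr and Nectin2, the ligands of TIGIT and CD226, were both lower in GO2 cells. The Pvr probe A_52_P162695 had levels of 2.56 and 2.75 in ID8G cells and of 1.78 and 1.98 in GO2 cells. The difference was -0.77 (SE 0.11, 95% confidence interval -1.07 to -0.47, limma adjusted p = 0.0111), a 1.71-fold lower level. The dimmer Pvr probe, A_51_P237097, had levels of -2.45 and -3.36 in ID8G cells and of -3.81 and -3.70 in GO2 cells, the first of which was not well above background. Its difference of -0.85 had a wide error (SE 0.32, limma adjusted p = 0.112), with an SD of 0.64 between the ID8G replicates and of 0.08 between those of GO2. Without ID8G replicate 2 its difference was -1.30 (limma adjusted p = 0.00717), and without ID8G replicate 1 it was -0.40 (limma adjusted p = 0.0760). Both probes placed GO2 cells lower, but only the brighter one passed the adjusted p.

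Nectin2 was measured by probes for different RefSeq transcripts. The probe A_55_P2167025 had levels of 3.77 and 3.91 in ID8G cells and of 3.29 and 3.32 in GO2 cells, a difference of -0.54 (SE 0.07, limma adjusted p = 0.00897) or 1.45-fold. The probe A_52_P188678 had levels of 3.60 and 3.55 in ID8G cells and of 3.29 and 3.28 in GO2 cells, a difference of -0.29 (SE 0.05, limma adjusted p = 0.0202) or 1.22-fold. The GO2 arrays lay below the ID8G arrays for both. Testing without the filter on dim probes raised the adjusted p to 0.05 or above for Pvr A_52_P162695 and for both Nectin2 probes. Without GO2 replicate 1 the adjusted p was also 0.05 or above for all 3, without GO2 replicate 2 for both Nectin2 probes, and without either ID8G replicate for A_52_P188678. These 3 probes had adjusted p-values between 0.176 and 0.231 when the methods' t-test was used.

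Nectin2 and Pvr lie near each other on mouse chromosome 7, and the genes around them were examined after the values of both were known, with the gene order of GRCm38.p6. The 6 protein-coding genes between them are Bcam, Cblc, Bcl3, Gm19345, Ceacam16 and Ceacam19, of which 4 were tested. All 4 were lower in GO2 cells at an adjusted p below 0.05, against 22.5% of all genes. Of these 3 were called lower, against 4.33% of all genes. Bcam, which encodes a receptor for laminin, had a difference of -1.09 (SE 0.06, limma adjusted p = 0.000976). Bcl3, which encodes a nuclear IκB family protein, had a difference of -0.96 (SE 0.09, limma adjusted p = 0.00427). Ceacam16 was at least 7.79-fold lower and Gm19345 at least 2.24-fold lower, since neither was well above background in GO2 cells. Both passed the background rule through ID8G alone, so their direction adds no support. Of the 10 genes on the outer sides, 4 were tested and none was above 0. Apoc1 was not well above background in GO2 cells and was at least 3.26-fold lower there. It passed the background rule through ID8G alone, so its direction adds no support either. Apoe had a difference of -0.70 (SE 0.09, limma adjusted p = 0.00948). Igsf23, next to Pvr, had one of -0.84 with a wide error (SE 0.56, limma adjusted p = 0.300). Tomm40, a mitochondrial import gene 1 place from Nectin2, had a difference of -0.08 (limma adjusted p = 0.352). The 4 genes between Nectin2 and Pvr stayed below 0 under each of the 6 other scalings or value sets tried. Their signs could hardly change, since the weakest difference was -0.96 and spike-in scaling shifted the median of all probes by -0.21.

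The same view was taken of the genes around Cd276 on chromosome 9. Of the 5 protein-coding genes on either side, 8 were tested and all 8 had differences above 0, from 0.01 to 1.24 with a median of 0.37. By the adjusted p alone 4 were higher, against 22.8% of all genes, and 1 was called higher, against 6.44%. Tbc1d21 passed the background rule through GO2 alone, which favors a difference above 0, and its groups overlapped. Insyn1, the direct neighbor of Cd276, was the 1 called higher, with a difference of 1.24 (SE 0.08, limma adjusted p = 0.00162), and Nptn, on the other side, had a difference of 0.48 (SE 0.06, limma adjusted p = 0.00810). With arrays scaled to the spike-ins 6 of the 8 were above 0 and the median was 0.17. Around Cd24a on chromosome 10, 8 genes were tested, none was called, and the differences ran from -0.34 to 0.26. Around Vtcn1, at background in both lines, 7 were tested, 6 were above 0 and 2 were called higher, against 6.44% of all genes. Around Cd47, 6 were tested and 1 was called lower, against 4.33% of all genes. That gene was Alcam, with a difference of -1.45. Of the 9 tested around Cd80 and the 4 around Cd86, none was called. The genes near a ligand were not chosen for their function, and whether position has a part in these values was not tested.

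**Figure D3:**
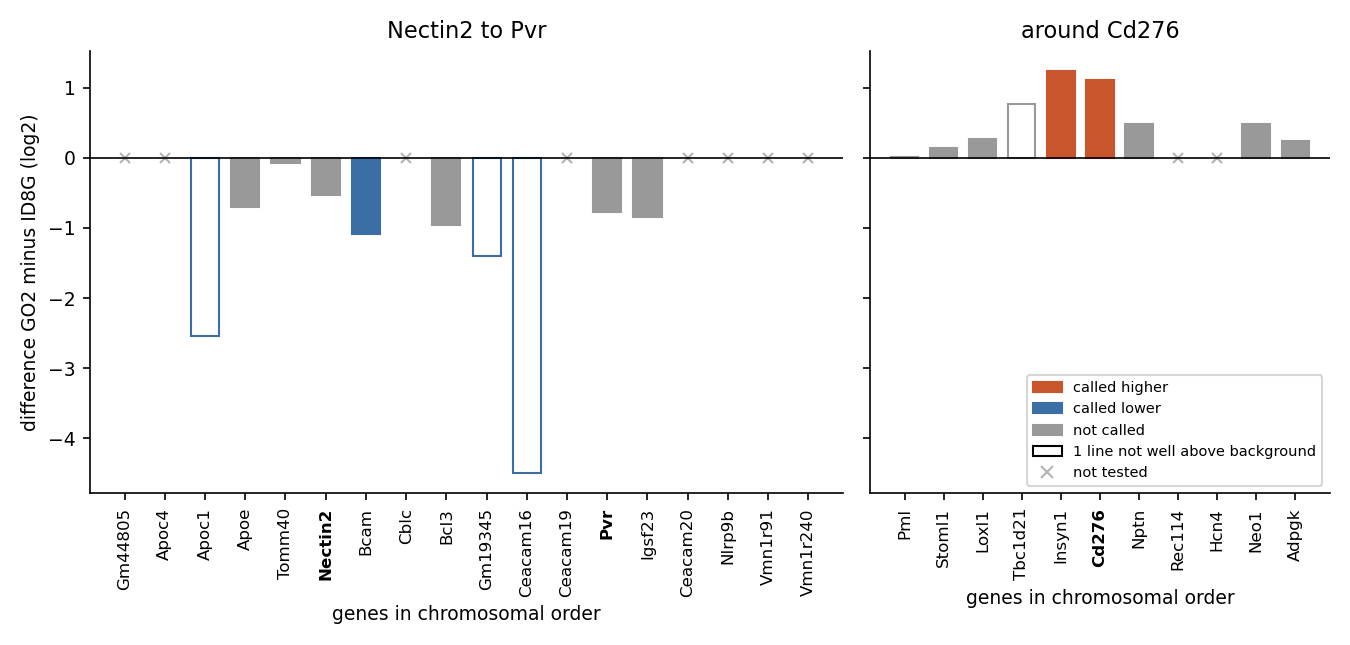
Difference between the lines (y axis, GO2 minus ID8G on the log2 scale, brightest tested probe of each gene) for protein-coding genes in chromosomal order (x axis), from 5 places before Nectin2 to 5 places after Pvr on the left and 5 places either side of Cd276 on the right. Open bars are genes not well above background in 1 line, and crosses are genes not tested. The tested genes from Nectin2 to Pvr all lie below 0, and those around Cd276 lie above it, Pml by 0.01 only.

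The bases before the start of transcription are shown for 4 of these genes, to set a ligand that was higher in GO2 cells (Cd276) and one that was lower (Nectin2) beside the adjacent PD-1 ligands that stayed at background (Cd274 and Pdcd1lg2). They are the 250 bases before the RefSeq start in GRCm38.p6, 5′ to 3′ on the strand of the gene, for Cd276 at chr9:58555034-58555283 on the minus strand, Nectin2 at chr7:19749574-19749823 on the minus strand, Cd274 at chr19:29367188-29367437 on the plus strand and Pdcd1lg2 at chr19:29410669-29410918 on the plus strand. Capitals mark a GC box (GGGCGG on either strand) or the core of an interferon-stimulated response element (ISRE, GAAANNGAA on either strand).
Cd276: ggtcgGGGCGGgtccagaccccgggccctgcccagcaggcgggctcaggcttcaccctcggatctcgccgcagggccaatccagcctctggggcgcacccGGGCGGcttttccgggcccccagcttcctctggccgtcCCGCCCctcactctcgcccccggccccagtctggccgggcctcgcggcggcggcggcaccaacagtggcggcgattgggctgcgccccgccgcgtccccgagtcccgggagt
Nectin2: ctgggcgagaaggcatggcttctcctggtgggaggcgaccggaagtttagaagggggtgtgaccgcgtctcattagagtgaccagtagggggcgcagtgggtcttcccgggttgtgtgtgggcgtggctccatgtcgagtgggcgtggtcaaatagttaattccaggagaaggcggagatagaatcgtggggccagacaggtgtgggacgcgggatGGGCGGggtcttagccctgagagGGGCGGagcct
Cd274: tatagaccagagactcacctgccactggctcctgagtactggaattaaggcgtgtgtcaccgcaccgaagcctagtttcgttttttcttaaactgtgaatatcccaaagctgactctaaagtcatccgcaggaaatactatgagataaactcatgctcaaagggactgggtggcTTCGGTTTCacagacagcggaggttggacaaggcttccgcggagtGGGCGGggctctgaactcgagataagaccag
Pdcd1lg2: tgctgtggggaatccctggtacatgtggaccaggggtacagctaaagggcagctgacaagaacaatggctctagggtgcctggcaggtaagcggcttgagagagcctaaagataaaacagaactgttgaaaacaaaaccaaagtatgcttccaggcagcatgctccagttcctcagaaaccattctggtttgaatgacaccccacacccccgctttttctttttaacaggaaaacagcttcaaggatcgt

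The windows differ in CG dinucleotides, of which Cd276 holds 29, Nectin2 16, Cd274 11 and Pdcd1lg2 3, where the median of 32851 mouse promoter windows of the same length is 6. The 2 overlapping windows of Cd47 hold 30 and 31, that of Vtcn1 5 and that of Cd80 3. Of the windows of all promoters, 32.7% hold a GC box. Cd276 holds 3 GC boxes, Cd47 and Nectin2 hold 2 each, Cd274 holds 1, and Pdcd1lg2, Cd80 and Vtcn1 hold none. The ISRE core, which 7.13% of all windows hold, is found in the window of Cd274 alone, at position -76 counted from the start. The core was searched after a form longer by 1 A had been found in no member window. A TATA box (TATAAA, 12.4% of all windows), an E-box (CACGTG, 6.02%) and a GAS element (TTCNNNGAA, 7.02%), each searched on both strands, were found in none of the 7 genes with a window. The windows of Cd24a, Cd86 and Pvr were not used here.

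Ligands of the same receptor families outside the 10 genes were grouped in lists. Of 18 other checkpoint and costimulatory ligands of T cells, 8 were tested, none was called higher and 2 were called lower. The shares over all genes tested were 6.44% called higher and 4.33% called lower. By the adjusted p alone 1 of the 8 was higher and 3 were lower, against 22.8% and 22.5% of all genes. Tnfsf9, the ligand of the costimulatory receptor 4-1BB, had levels of 1.67 and 1.68 in ID8G cells and of 0.40 and 0.34 in GO2 cells, a difference of -1.30 (SE 0.05, limma adjusted p = 0.000551). Ceacam1, a ligand of TIM-3, was not well above background in GO2 cells and was at least 2.04-fold lower there. It passed the background rule through ID8G alone, so its direction adds no support. Hmgb1, the brightest of the list, had a difference of 0.08 (limma adjusted p = 0.320). The brighter probe of Lgals3, which encodes galectin-3, a ligand of LAG-3, had a difference of -0.47 (limma adjusted p = 0.00904). The median of the list was -0.04.

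Among 8 nectins and related adhesion ligands, 4 were tested, 1 was called higher and none lower, with a median of 0.12. Over all genes tested, 6.44% were called higher and 4.33% lower. Nectin1, which binds other nectins and CD96, had levels of -3.30 and -3.54 in ID8G cells and of -1.28 and -1.19 in GO2 cells, a difference of 2.18 (SE 0.10, limma adjusted p = 0.000685). It moved in the opposite direction to Nectin2 and Pvr. The brighter probe of Cadm1, a ligand of CRTAM, had a difference of 0.51 (limma adjusted p = 0.00561) and Cadm4 one of -0.35 (limma adjusted p = 0.0230). Of 9 ligands of NKG2D, an activating receptor of natural killer cells, 4 had a probe and 2 were tested, with none called. Raet1e had a difference of -0.65 (limma adjusted p = 0.00254) and Ulbp1 one of 0.22 (limma adjusted p = 0.201).

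Further signals that promote or limit engulfment numbered 17, of which 16 were tested, with a median of 0.14. Of these, 4 were called higher, against 6.44% of all genes, and 1 was called lower, against 4.33%. Thbs1, a secreted protein that binds CD47, had levels of 0.52 and 0.56 in ID8G cells and of 2.62 and 2.59 in GO2 cells, a difference of 2.07 (SE 0.05, limma adjusted p = 0.000248). Gas6 and Pros1, which bridge phosphatidylserine on dying cells to TAM receptors, were higher by 1.73 (SE 0.06, limma adjusted p = 0.000429) and 1.40 (SE 0.09, limma adjusted p = 0.00168). Lrp1, a receptor of calreticulin, was higher by 1.05 (SE 0.07, limma adjusted p = 0.00155). All 3 probes of Cd55, which protects cells from complement, were called lower, with differences of -1.42, -1.31 and -1.25. Anxa1 and Mfge8, the brightest of the list beyond these, were not called, with differences of 0.17 and -0.02 for their brightest probes.

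The receptors of the ligands belong to leukocytes, and of 11 listed 4 were tested, all of them dim. Tigit had levels of -3.25 and -3.27 in ID8G cells and of -5.97 and -6.05 in GO2 cells, the latter not well above background, and was at least 1.47-fold lower there. Siglecg, the receptor of CD24, had levels of -4.29 and -4.62 in ID8G cells, not well above background, and of -3.31 and -3.41 in GO2 cells, and was at least 1.25-fold higher there. Both bounds are smaller than 2-fold although both probes were called. Tigit passed the background rule through ID8G alone and Siglecg through GO2 alone, so their directions add no support. Treml2 and Cd28 had differences of -0.37 (limma adjusted p = 0.430) and -0.18 (limma adjusted p = 0.195).

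Of 16 genes of interferon gamma signaling and PD-L1 control, all 16 were tested and none was called in either direction, with a median of 0.01. Over all genes, 6.44% were called higher and 4.33% lower. At an adjusted p below 0.05 with no minimum difference, 4 were higher and 3 were lower, against 22.8% and 22.5% of all genes. The brighter probe of Irf1, a transcription factor induced by interferon, had levels of 3.79 and 3.79 in ID8G cells and of 4.15 and 4.13 in GO2 cells, a difference of 0.35 (SE 0.05, limma adjusted p = 0.0117). Cmtm7 had a difference of 0.15 (limma adjusted p = 0.126). Cd274 itself stayed at background in both lines beside these.

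Secreted factors and enzymes known to restrain immune cells numbered 17, of which 10 were tested, with a median of -0.14. Of these, 2 were called higher, against 6.44% of all genes, and 2 lower, against 4.33%. Csf1, the growth factor of macrophages, was higher on all 3 of its probes, and the brightest had levels of 2.02 and 1.98 in ID8G cells and of 4.12 and 4.08 in GO2 cells, a difference of 2.11 (SE 0.05, limma adjusted p = 0.000248). Nt5e, which encodes the adenosine-producing enzyme CD73, was not well above background in ID8G cells and was at least 4.33-fold higher in GO2 cells. It passed the background rule through GO2 alone, so its direction adds no support. Ccl2, which attracts monocytes, had a difference of -1.73 (SE 0.07, limma adjusted p = 0.000552), and Ptgs2, which encodes cyclooxygenase-2, one of -1.85 (SE 0.05, limma adjusted p = 0.000314). Tgfb3 and the brighter probe of Tgfb2 had differences of 0.65 and 0.58. With arrays scaled to spike-in transcripts, the median over all probes shifted by -0.21, and this took the medians of the nectin and engulfment lists to -0.09 and -0.07.

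**Figure D4:**
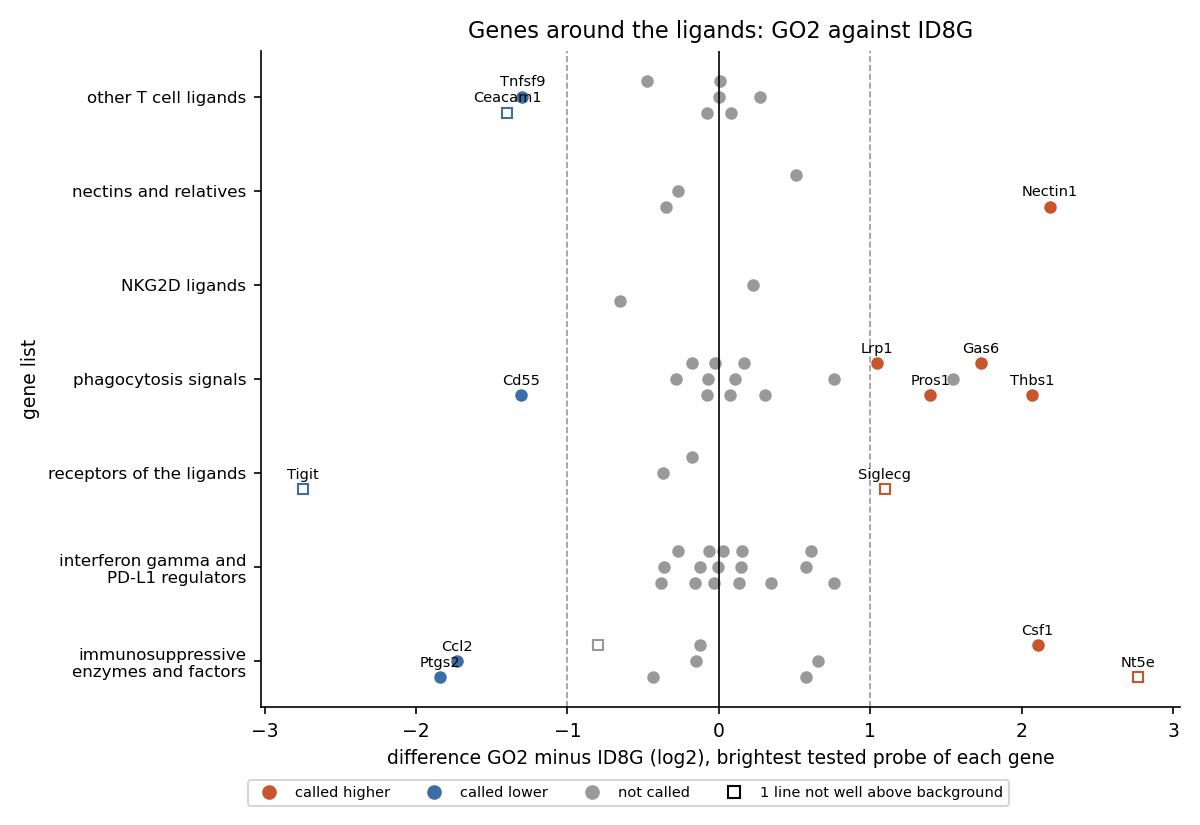
Difference between the lines (x axis, GO2 minus ID8G on the log2 scale) of each tested gene in the 7 lists around the ligands (y axis), with 1 point per gene for its brightest tested probe and dashed lines at a 2-fold change. Open squares are genes not well above background in 1 line, and only called genes are labeled. Points past the dashed lines include Csf1 at 2.11, Nectin1 at 2.18 and Thbs1 at 2.07 on the right and Tnfsf9, Cd55, Ccl2 and Ptgs2 on the left.

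Several of these ligands are also made by leukocytes and stromal cells, so markers of such cells were examined. Of 12 leukocyte and macrophage markers, 5 were well above background in both lines, Itgam, Csf1r, Cd14, Cd68 and Fcer1g, while Ptprc, Adgre1, Lyz2, Laptm5, Mrc1, Tyrobp and C1qa were not on any array. The summed intensity of the list was 15259 to 16924 in ID8G cells and 13793 to 13900 in GO2 cells. Most of it is the Itgam probe A_55_P1977934, with a difference of -0.13 (limma adjusted p = 0.311). The other Itgam probe, A_55_P1977926, was well above background on 1 GO2 array only, so the probes disagree on detection. Both Cd14 probes were lower, by -0.67 and -0.69 (limma adjusted p = 0.00298 and 0.00210). None of the 4 granulocyte markers was well above background on any array, and neither were the B cell markers Cd79a and Cd79b. Pax5, of the same B cell list, was well above background on all 4 arrays, with levels of -3.05 and -3.12 in ID8G cells and of -3.24 and -2.82 in GO2 cells, and had a difference of 0.06 (limma adjusted p = 0.797). Of the T and natural killer cell markers Cd4 and Cd3e were detected in both lines, with differences of -0.07 and 0.18 for their brightest probes, while Cd3d and Cd8a were not detected. Cd2 was well above background on GO2 replicate 2 alone, at a level of -1.36, and was not tested. Of the dendritic cell markers Ccr7 was called lower by 1 of 2 probes, Zbtb46 had differences below 0, and Flt3 and Itgax were not detected. Zbtb46 passed the background rule through ID8G alone, so its direction adds no support. Xcr1 went the other way, well above background on GO2 replicate 2 alone, at a level of -1.87, and was not tested. Pecam1 was the endothelial marker detected, Hba-a1 the erythroid one and Pparg and Lep the adipocyte ones with the highest signal, with differences between -0.42 and 0.08, while Cdh5 and Adipoq were not detected. Cidec, of the adipocyte list, was well above background on 1 GO2 array only and was not tested.

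Of 6 fibroblast markers, 4 were tested, and Col3a1, Pdgfra and Pdgfrb were called higher in GO2 cells, against 6.44% of all genes. The differences were 4.20 for Col3a1 and 3.70 for Pdgfra, and Pdgfrb was at least 2.42-fold higher. Pdgfrb passed the background rule through GO2 alone, so its direction adds no support. Dcn was lower, with a difference of -0.63 (limma adjusted p = 0.00309), and Lum and Thy1 were not well above background on any array. The summed intensity of the list was 44048 to 46401 in ID8G cells and 40415 to 42414 in GO2 cells. Most of that sum is Dcn, with levels of 6.07 and 6.01 in ID8G cells and of 5.41 and 5.42 in GO2 cells. The sum therefore does not describe the other fibroblast markers. Within the fibroblast list, only Col3a1, Pdgfra and Pdgfrb were thus higher in the same samples as Cd24a and Cd276. Over the whole array, 851 of the 13215 genes tested were called higher there. The part of the fibroblast markers in those results was not tested. Of 11 ovarian surface and mesothelial markers with a probe, 9 were well above background in both lines, which includes Krt8, Krt18, Krt19, Msln and Wt1, and Epcam and Krt7 were not on any array. Within that list Krt19 was called lower, with a difference of -1.65, Upk3b was called higher, with one of 1.08, and the summed intensity was 443939 to 453353 in ID8G cells and 242028 to 242430 in GO2 cells. The arrays did not differ widely in quality. Between 27502 and 28841 probes were well above background per array, the 75th percentile lay between 627 and 675 in intensity, and no spot was saturated.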

How the data were processed

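RNA of ID8G and GO2 cells was measured on 4 1-color Agilent arrays, 2 per line. The deposited scanner files hold the Cy3 intensity of each spot, which Feature Extraction 11.5.1.1 corrected for background without scaling between arrays. The deposited value table holds log2 values from GeneSpring, scaled to the 75th percentile of each array and centered on the median of each probe, so its values are relative. Values computed here with outlier spots kept and each probe centered on its median differed from that table by a median of 0.00039 and by at most 0.38. The deposited table served as 1 alternative. Its column medians ran from -0.05 to 0.10.

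For each array, the log2 of the 75th percentile was subtracted from the log2 intensities after outlier spots (132 to 195 per array) were dropped and the spots of a probe averaged. Probes were named through RefSeq accessions (GRCm38.p6), which matched 32994 of 56605 probes (58.3%). Array coordinates (mm9) are not given. The fit used limma 3.58.1 (R 4.3.3) on the 28368 probes that passed the background rule in either line. Its model held the cell line alone, and p-values were adjusted over all of these probes (Benjamini-Hochberg). A gene was called if any of its probes was, list medians used its brightest tested probe, and figures were drawn with matplotlib 3.10.9. The fit was tested on simulated data. Promoter windows came from RefSeq, with 7 of the 10 genes matched.

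Named were all 10 ligands, every called gene of a list, the 2 brightest others of each list, and neighboring genes chosen after their values were seen. The genes and lists were chosen with earlier results of these data known. The slide as a block could not be fitted because there was 1 slide. Replicate numbers did not pair the arrays (correlation of deviations 0.03).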

Additional observations from a re-analysis of the deposited data

How the results depend on the processing

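With 2 arrays per line the smallest exact two-sided permutation p for 1 probe is 0.333, so single-probe tests rest on limma's pooled spread, and dim probes limit what can be said of Cd274, Pdcd1lg2, Vtcn1 and Cd86. Of 169 values of single probes under other settings, 157 kept their direction and their state as called or not called, 6 lost a call, 6 gained one and 0 reversed. A probe not called in the main fit cannot lose a call. The settings in which Cd47, Pvr or Nectin2 rose to an adjusted p of 0.05 or above are therefore among those counted as kept. Of the ligands, 2 were called higher, and this fell to 1 with normexp background correction, with spike-in scaling and with limma treat at a minimum log2 difference of 1 (Cd24a each time), and to 0 with the methods' t-test (smallest adjusted p 0.118, with 5 of the 9 probes at an unadjusted p below 0.05). The number called lower was 0, and it rose to 1 with spike-in scaling (Pvr A_51_P237097, -1.06) and to 3 with no minimum difference, and ranged from 0 to 1 when 1 array was left out, the 1 being Cd86 A_52_P145861 without ID8G replicate 1, where its GO2 values were not well above background and no difference was measured, and Pvr A_51_P237097 without ID8G replicate 2 (-1.30). In both, the lone ID8G array is assumed to vary like the GO2 arrays. With the replicate number as a replicate block, 2 ligands were called higher and 0 lower, as without it. Over the 7 related lists, 8 genes were called higher, where 6.44% of all genes were, and 6 lower, where 4.33% were. The number called higher was 18 with no minimum difference, 5 with limma treat and 0 with the methods' t-test. The number called lower was 16 with no minimum difference and 0 with the t-test. Over probes well above background on all 4 arrays, 6 were called higher and 4 lower. The rest of the called genes had passed the background rule through 1 line alone. Scaling to the 7 spike-ins, whose own differences ran from 0.15 to 0.28, moved the median of all probes by -0.21. The cause of these shifts was not tested.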
